A study of Mus musculus with 8 samples.

Results

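Dux, listed in the count tables as Duxf3, and 9 further genes of the 2-cell program linked to it or to MERVL repeats were followed gene by gene: Zfp352, Gm12794, Gm4340, Usp17la, Usp17lc, Usp17le, Tdpoz4, Spz1 and Sp110. They were chosen by name, with earlier results of these data known, and each of the 10 symbols matched exactly 1 of the 54146 gene rows. Mouse embryonic stem (mES) cells derived from the inner cell mass had been grown on gelatin with feeder cells, mouse embryonic fibroblasts, for 2 days in medium with LIF and 2i, 2 kinase inhibitors that hold the cells in a naive state. One culture was left untreated (control) and the other received CX-5461, an inhibitor of RNA polymerase I, at a dose and for a time not given in the sources used here for these libraries. The labels list 4 samples per condition, but each condition is 1 count table without a sample of origin, and the study's reporting summary gives 1 biological replicate, so a condition counts as 1 library here and conditions were compared without any test. Intervals in parentheses are exact 95% intervals and cover counting error only, since unique molecular identifiers (UMIs, 1 per captured RNA molecule) of 1 cell or 1 culture are not independent.

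In the mouse embryo, Dux encodes a double homeobox transcription factor that is transcribed briefly around the first activation of the zygotic genome. It binds and activates the long terminal repeats of the endogenous retrovirus MERVL and nearby genes, many of which use such a repeat as their start. A small share of cultured ES cells passes through a similar transcriptional state and is called 2C-like, and Zscan4 is the gene cluster most often used to mark them. MERVL repeats themselves were not analysed here, because the tables hold genes.

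After filtering, 3767 control and 4697 CX-5461-treated cells remained, with medians of 12987 and 14213 UMIs per cell. The control library held more shallow cells, with a lower quartile of 3638.5 UMIs beside 11341. Feeder cells, taken as cells with at least 0.1% of their UMIs on the 3 collagen genes Col1a1, Col1a2 and Col3a1, numbered 141 and 146 and had median depths of 22538 and 24958.5 UMIs. A UMI of Pou5f1, the pluripotency factor, was found in 87.8% and 97.8% of the other cells and also in 55.3% and 28.1% of feeder cells. Of 8 macrophage markers 7 could be compared, and 5 of them were at most 0.5 times the control level in the CX-5461 library. Of all genes 5.64% were. Lyz2 stood at 511 UMIs without and 8 with CX-5461, Tyrobp at 154 and 2, and Fcer1g at 154 and 15. C1qa stood at 47 and 1, Csf1r at 25 and 16, and only Ptprc was at 0 after treatment. All 8 summed to 18.1 and 18.9 counts per 1000000 (CPM) in control and treated feeder cells. In the other cells the sums were 58.7 and 79.0 CPM. These sums hide the lower markers, because Laptm5 and Cd68 were higher after treatment, with ratios of 1.66 and 3.12. Over the treated library they reached 49.1 and 26.1 CPM, and each other marker at most 0.233 CPM. The part of the macrophage markers in the results was not tested. Over the 18723 genes with at least 20 UMIs the median log2 ratio of CX-5461 to control was 0.40, so that ratios of library totals below are to be read against that shift.

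The promoter windows of 3 of the genes are shown first because they share a word of letters. RefSeq windows (GRCm38.p6, 250 bases before to 50 bases after an annotated start) were at hand for Duxf3, Zfp352, Gm4340, Usp17la, Usp17lc, Tdpoz4 and Spz1, and 2 windows for Sp110. Capitals mark each copy of the 13 letters cacacctttaatc read along the gene's strand. Zfp352 is read from chr4:90218570-90218869 on the plus strand, Gm4340 from chr10:104193792-104194091 on the plus strand, and Sp110 from chr1:85603842-85604141 on the minus strand.
Zfp352: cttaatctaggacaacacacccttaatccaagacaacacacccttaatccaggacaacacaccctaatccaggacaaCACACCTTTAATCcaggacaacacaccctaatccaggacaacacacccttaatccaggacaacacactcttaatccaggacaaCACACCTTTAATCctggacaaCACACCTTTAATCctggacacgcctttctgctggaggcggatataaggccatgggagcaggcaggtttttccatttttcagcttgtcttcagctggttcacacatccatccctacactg
Gm4340: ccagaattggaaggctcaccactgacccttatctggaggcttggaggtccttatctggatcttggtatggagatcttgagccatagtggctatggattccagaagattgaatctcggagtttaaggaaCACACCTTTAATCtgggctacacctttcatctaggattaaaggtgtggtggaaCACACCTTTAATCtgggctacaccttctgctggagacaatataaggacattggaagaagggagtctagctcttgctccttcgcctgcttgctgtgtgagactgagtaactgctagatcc
Sp110: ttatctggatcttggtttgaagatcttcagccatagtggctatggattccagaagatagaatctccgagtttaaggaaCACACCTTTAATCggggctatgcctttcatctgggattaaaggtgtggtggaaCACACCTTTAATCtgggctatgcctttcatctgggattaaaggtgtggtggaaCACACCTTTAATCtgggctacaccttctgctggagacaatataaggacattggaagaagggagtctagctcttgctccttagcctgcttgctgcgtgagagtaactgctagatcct

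The 3 windows held 15 letters in common, of which the marked 13 are the last. Zfp352 had 3 marked copies, at 173, 90 and 69 bases before the start. Gm4340 had 2, at 122 and 69 bases, and Sp110 had 3, at 172, 119 and 66 bases, and both had the reverse complement between them. On either strand 50 of 32851 windows held the 13 letters, which is 0.152%. The same 3 windows had the 6 letters TATAAG at 28, 30 and 27 bases before the start, a position (20 to 35 bases before) where 0.874% of windows had them on that strand. Gm4340 and Sp110 were alike over a longer stretch, with an unbroken run of 100 identical bases, while the longest run that Zfp352 shared with either was the 15 letters. The 9 letters GATNNNATC, in which N is any base and which read the same on both strands, were searched because they resemble paired homeobox half-sites. They were found at 139 bases before the start of Duxf3, at 146 bases in Gm4340 and at 196 bases in Sp110, and in 3.51% of all windows. These matches are descriptions of letters, and no binding was measured.

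The Sp110 window above is the farther upstream of the 2 RefSeq windows at hand for this gene. The nearer window does not hold the marked letters. Its longest runs shared with the windows of Zfp352 and Gm4340 were 10 and 8 bases, too short for them. The farther window lies outside the GENCODE span of Sp110 (chromosome 1, 85576899 to 85598817, minus strand) and inside the neighbouring gene Sp140 (85600378 to 85645037, plus strand). Whether counting used the strand is not given in the sources used here, so reads of this overlap cannot be assigned with certainty. The Usp17l genes lie in 1 family on chromosome 7, and the windows of Usp17la and Usp17lc shared an unbroken run of 49 bases, at chr7:104856813-104856861 and chr7:103416451-103416499 on the plus strand, shown because it makes plain how alike these copies are.
Usp17la and Usp17lc: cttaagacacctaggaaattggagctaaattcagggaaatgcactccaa

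Dux transcripts were rare in both libraries. For Duxf3 (chromosome 10, 58229979 to 58232675, minus strand) 3 UMIs were counted in 3 untreated cells and 53 UMIs in 30 CX-5461-treated cells. These were 0.0606 CPM (0.0125 to 0.177) and 0.771 CPM (0.577 to 1.01), a ratio of 12.7 (4.12 to 63.6). The intervals of the 2 levels did not overlap, and no single cell set the treated level: the cell with the most Duxf3 held 6 UMIs, 11.3% of the total, and 22 of the 30 cells held a single UMI. The near copy AW822073 was at 0 and 1 UMIs. The Duxbl genes on chromosome 14, which encode related double homeobox proteins, were also low, with 5 and 37 UMIs for Duxbl2 and 7 and 59 for Duxbl3.

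Zfp352, a zinc finger gene transcribed in the 2-cell embryo (chromosome 4, 90218820 to 90225702, plus strand), was the most unevenly spread. It had 1 UMI in the control library and 28 UMIs in 4 CX-5461-treated cells, of which 21 were in 1 cell. The ratio of the sums was 20.2 (3.33 to 824), and it rested on that cell for 75% of the treated UMIs. The only control UMI was in a cell of 3105 UMIs, and with single cells' CPM averaged the log2 ratio was 2.95, beside 4.33. Gm4340 (chromosome 10, 104194042 to 104196522, plus strand) behaved in the same way, with 2 UMIs in 2 control cells and 40 UMIs in 7 treated cells, 25 of them in the cell that also led Zfp352. Its ratio was 14.4 (3.73 to 123). The log2 of this ratio, 3.85, became 3.06 as a mean of the single cells' CPM and 4.83 once cells under 5000 UMIs or over a mitochondrial fraction of 0.1 were dropped. The 5 genes that lie next to Gm4340 in a row and hold the same 13 letters near their starts, Gm20765, Gm21312, Gm21304, Gm21293 and Gm8764, were at 0 UMIs without treatment and at 210 with it. Those 210 UMIs were in 8 cells, each with a Zscan4 UMI, and 129 of them were in the cell that led Gm4340.

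Gm12794 (chromosome 4, 101940407 to 101943183, plus strand) had the highest level of the genes other than Sp110 in the CX-5461 library, but not in the control library, where Usp17la had more UMIs. In the control library it had 4 UMIs in 3 cells, and in the CX-5461 library 149 UMIs in 25 cells, or 0.0808 CPM (0.022 to 0.207) and 2.17 CPM (1.83 to 2.54). The ratio was 26.8 (10.3 to 99.7). Its log2 ratio of 4.74 became 5.47 without the leading cell of each library and 4.05 as a mean of the single cells' CPM. Its UMIs were shared among more cells than those of Zfp352, with 26, 21 and 16 UMIs in the 3 highest cells.

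The Usp17l genes encode deubiquitinating enzymes. Usp17la (chromosome 7, 104857009 to 104862667, plus strand) was found with 8 UMIs in 7 untreated and 82 UMIs in 35 treated cells, a ratio of 7.38 (3.57 to 17.7). Usp17lc (103415072 to 103419880, plus strand) had 6 UMIs in 5 cells and 38 UMIs in 20 cells, a ratio of 4.56 (1.91 to 13.2). Usp17le (104768049 to 104777470, minus strand) had 1 UMI and 18 UMIs in 11 cells, a ratio of 13.0 (2.05 to 540). As a mean of the single cells' CPM the log2 ratios were 1.34 for Usp17la and 1.33 for Usp17lc, beside 2.88 and 2.19 for the sums, with 1 UMI of each in a control cell of only 1086 UMIs. Of the 3, Usp17la was found in the most cells of both libraries. No member of the family was dominated by 1 treated cell, the highest share being the 22.2% of Usp17le. The authors' tables mark at most 2 counts of any of the 10 genes as shared with another gene, and none of the Usp17l counts.

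Tdpoz4, of a family with MATH and BTB/POZ domains (chromosome 3, 93796398 to 93797510), had 0 UMIs in untreated and 1 in CX-5461-treated cells. A count of 0 in 3767 cells allows a share of up to 0.0796%, so a difference in Tdpoz4 was not detectable at this depth. The same holds for Spz1, which encodes a leucine zipper factor of the testis (chromosome 13, 92574636 to 92576172), with 1 UMI and 4 UMIs in 3 cells and a ratio of 2.88 (0.285 to 142).

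Sp110, an interferon-inducible nuclear body protein of the SP100 family, was the only 1 of the 10 genes with UMIs in feeder cells. There were 52 UMIs in 31 untreated cells and 293 UMIs in 117 treated cells, 1.05 CPM (0.785 to 1.38) and 4.26 CPM (3.79 to 4.78). The ratio was 4.06 (3.01 to 5.56). A single treated cell held 104 of the 293 UMIs, and it was again the cell with the most Zfp352 and Gm4340.

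**Figure D1:**
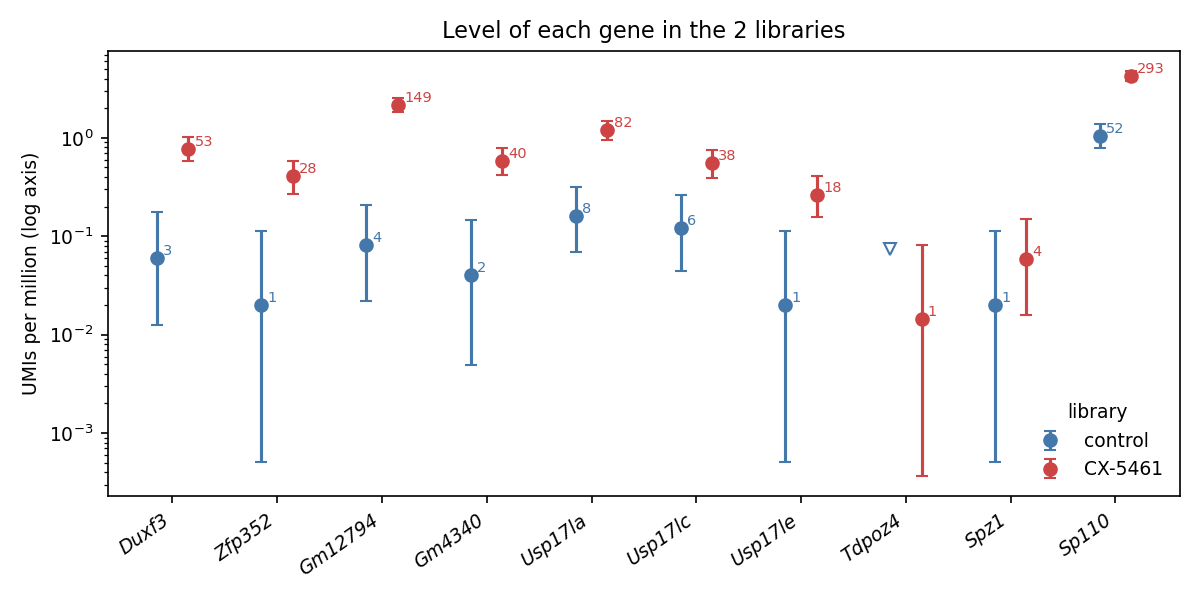
Level of each of the 10 genes in the control (blue) and CX-5461 (red) library, in CPM on a log axis, with exact 95% counting intervals and the number of UMIs beside each point. The open triangle is the upper bound for Tdpoz4, which had 0 control UMIs. The treated interval lies above the control interval for every gene but Tdpoz4 and Spz1.

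In the CX-5461 library the order of the levels was Sp110, Gm12794, Usp17la, Duxf3, Gm4340, Usp17lc, Zfp352, Usp17le, Spz1 and Tdpoz4. The libraries count 3′ ends, so these levels were not divided by length. Sp110 and Gm12794, Gm12794 and Usp17la, and Usp17le and Spz1 were separated by their intervals, and the other neighbours were not. In the control library Sp110 was set apart from the rest, and the intervals of all the others overlapped.

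With a minimum of 20 UMIs over both libraries 7 of the 10 genes could be called, and all 7 had a ratio of at least 2, where 25.0% of all 18723 genes did. The genes other than Sp110 were at no more than 8 UMIs in untreated cells and reached the minimum only through the treated one, so this count describes them and is no support. Usp17le, with 19 UMIs, was just short of the minimum. After division by a scaling factor of 1.30 between the libraries (trimmed mean of M-values, TMM) the ratios of the 7 ranged from 3.12 for Sp110 to 20.6 for Gm12794. The 6 Zscan4 copies Zscan4a to Zscan4f had ratios from 2.61 (Zscan4d) to 4.99 (Zscan4f), and together 310 and 1427 UMIs, a ratio of 3.31 (2.93 to 3.76). The ratio of the 9 genes without Sp110, at 26 and 413 UMIs, was 11.4 (7.69 to 17.7), and this interval does not overlap that of the Zscan4 copies. In control and treated cells the 5 leading cells held 73.1% and 49.4% of the UMIs of the 9 genes. For the Zscan4 copies they held 80% and 40.5%. The intervals cover counting error only and the genes were chosen with earlier results known, so this is a description.

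The number of cells was counted next. At least 1 UMI of the 9 genes without Sp110 was found in 12 control cells, 0.319% (0.165 to 0.556), and in 69 treated cells, 1.47% (1.14 to 1.86). Each cell was also thinned to 3100 UMIs in 1 random draw (824 control and 21 treated cells had fewer and were dropped). The shares were then 0.238% (0.0957 to 0.489) and 0.727% (0.504 to 1.01), from 7 and 34 cells. These intervals were apart only narrowly, and another draw could differ. For single genes the thinned counts were too low to separate the libraries, as for Usp17la with 5 and 14 cells. Feeder cells gave 0 UMIs of the 9 genes in either library. With 141 and 146 cells this allows shares of up to 2.13% and 2.05%, which is more than the shares found in all cells, so the feeder cells cannot set a background below them. In UMIs, 3 counts in the feeder cells would be 0.919 and 0.809 CPM, well under the 6.01 CPM (5.44 to 6.62) of the 9 genes in the CX-5461 library and above the 0.525 CPM (0.343 to 0.77) of the control library.

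Most UMIs of these genes were in cells that also had Zscan4. Of the CX-5461-treated cells with Duxf3, 20 of 30 had a UMI of Zscan4a to Zscan4f, 66.7% (47.2 to 82.7), where 3.85% of all treated cells did. The shares were 22 of 25 for Gm12794, 28 of 35 for Usp17la, 13 of 20 for Usp17lc and 8 of 11 for Usp17le. Zfp352 and Gm4340 were found with Zscan4 in 4 of 4 and 7 of 7 cells. Of the 6 genes with at least 10 positive treated cells, 5 had Zscan4 in at least 50% of them, and Sp110, with 16 of 117 or 13.7% (8.02 to 21.3), did not. Among all 19369 genes with as many positive cells 0.454% reached 50%, and the median gene had Zscan4 in 3.75% of its cells. For rarely detected genes, with 10 to 50 positive cells, 1.75% of 4629 reached it. In the control library Zscan4 was found with Duxf3 in 2 of 3 cells, with Usp17la in 5 of 7 and with Gm12794 in 3 of 3. These shares are of cells of 1 library and carry no test.

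**Figure D2:**
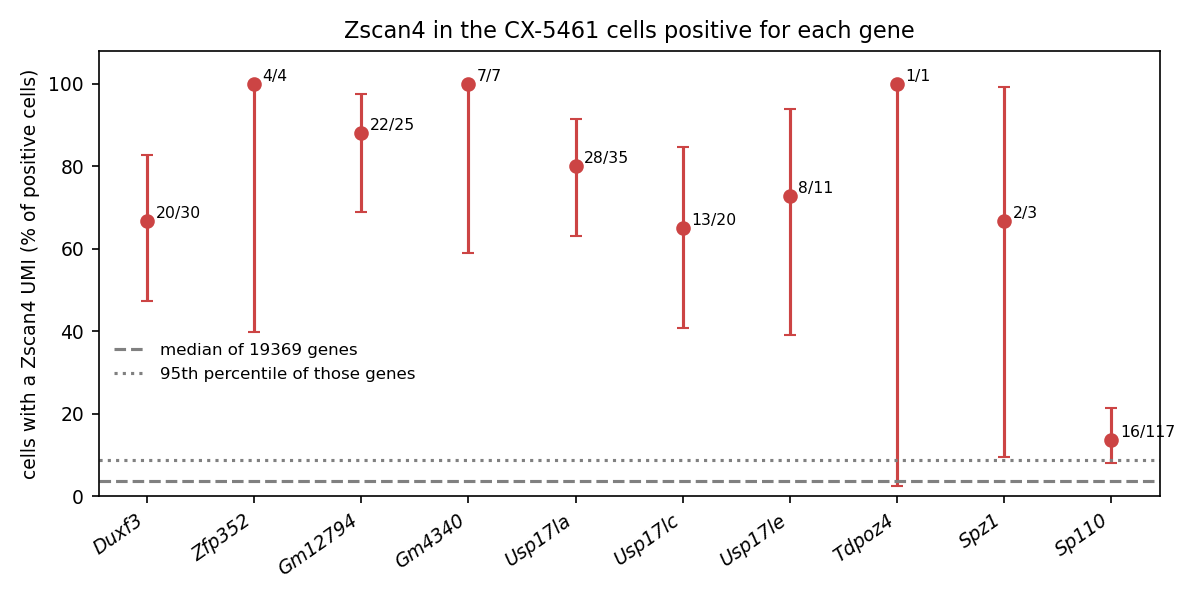
Share of the CX-5461-treated cells positive for each gene that also had a UMI of Zscan4a to Zscan4f, in percent, with exact 95% intervals and the numbers of cells. The dashed line is the median of 19369 genes (3.75%) and the dotted line their 95th percentile (8.7%). Every gene but Sp110 lies at 65% or more, with wide intervals for Tdpoz4, Spz1 and Zfp352.

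Not all cells with Zscan4 had these genes. Of the 181 treated cells with a Zscan4 UMI, 39 had 1 of the 9 genes, 21.5%, and the share was higher where the cell held more Zscan4. The 9 genes were found in 11 of 128 cells with 1 to 4 Zscan4 UMIs, in 13 of 35 with 5 to 19 and in 15 of 16 with 20 or more. Their summed level in these classes was 10.5 CPM (6.32 to 16.4), 121 CPM (92.3 to 156) and 1433 CPM (1276 to 1604), against 0.512 CPM (0.35 to 0.723) in the 4372 cells without Zscan4. Feeder cells are left out of these classes. Relative to Zscan4 itself the treated cells had 32.9 UMIs of the 9 genes per 100 Zscan4 UMIs in the last class, 19.4 in the middle and 9.55 in the low class. The control library did not follow this order, with 6.70 in the 3 cells of its last class, 11.8 in the 6 of the middle and 0 in the low class.

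The genes were spread differently over the classes. In treated cells without Zscan4, by far the largest class, there were 10 UMIs of Duxf3, 8 of Usp17la, 7 of Usp17lc and 3 each of Gm12794 and Usp17le. Cells with 1 to 4 Zscan4 UMIs held 5, 7 and 4 UMIs of Duxf3, Usp17la and Usp17lc. Gm12794 had 2 there, 23 in the middle class and 121 in the highest, where it reached 574 CPM (476 to 686) and was found in 13 of 16 cells. All 28 UMIs of Zfp352, and 39 of the 40 of Gm4340, were in the 16 cells of the highest class.

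**Figure D3:**
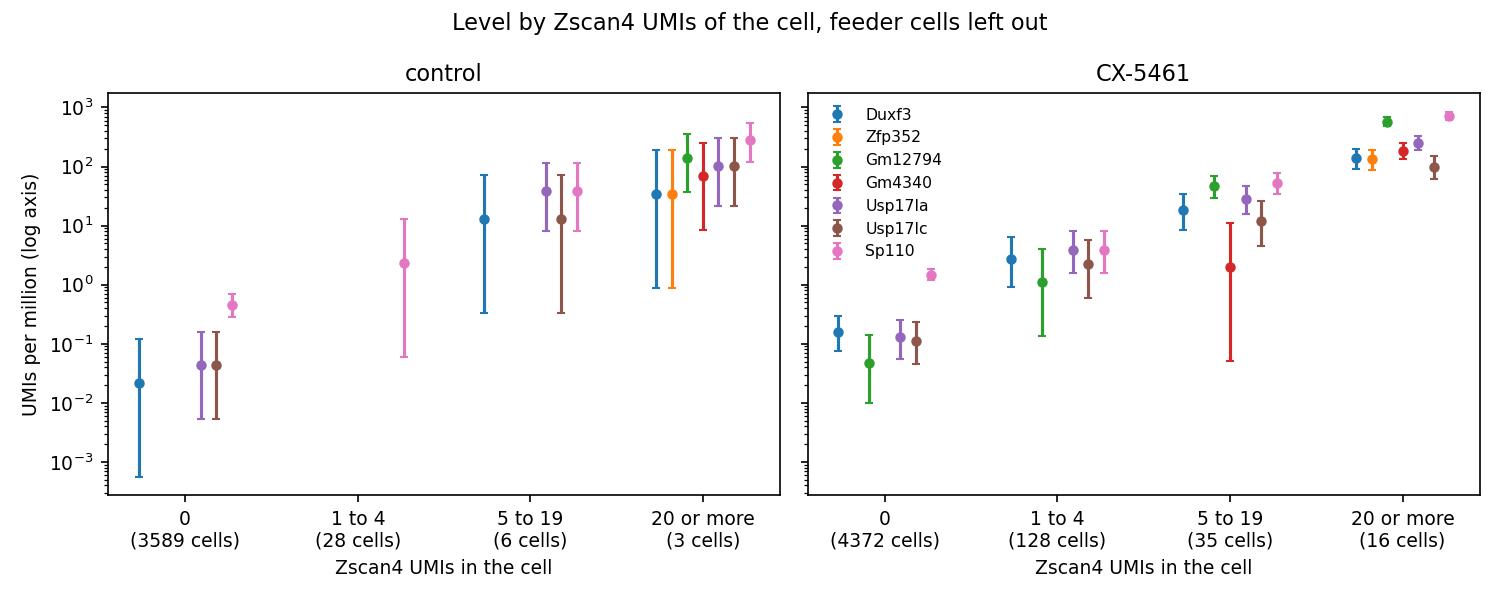
Levels of 7 of the genes in CPM on a log axis, with exact 95% counting intervals, in cells grouped by their Zscan4 UMIs, for the control (left) and CX-5461 (right) library without feeder cells. A gene with 0 UMIs in a class has no point. In the CX-5461 library levels were highest in the 16 cells with 20 or more Zscan4 UMIs, where Gm12794 and Sp110 led.

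Within cells of similar Zscan4 content the control library could be compared only roughly, since it had 9 cells with at least 5 Zscan4 UMIs and the CX-5461 library had 51. A UMI of the 9 genes was found in 7 of the 9, 77.8% (40.0 to 97.2), and in 28 of the 51, 54.9% (40.3 to 68.9), so a higher share was not found after treatment. Their summed level was 197 CPM (122 to 302) and 512 CPM (461 to 568), a ratio of 2.60 (1.67 to 4.25). Without the leading cell of each library the levels were 143 CPM in control and 442 CPM in treated cells. The median cell went the other way, with 121 CPM in control and 86.0 CPM in treated cells. With 5 to 19 Zscan4 UMIs the ratio was 1.56 (0.678 to 4.43), and with 20 or more it was 2.76, with a lower bound of 1.65. The highest control cell held 7 UMIs of the 9 genes, and 12 treated cells held more. As a fraction of the cell's UMIs, 4 of the 51 treated cells exceeded the highest control cell, which had only 1086 UMIs in all. By gene the ratio was 5.42 (2.07 to 20.2) for Gm12794, 2.86 (0.74 to 24.5) for Duxf3, 1.68 (0.734 to 4.75) for Usp17la and 1.02 (0.354 to 4.00) for Usp17lc. Of these 4 intervals, which cover counting error only, that of Gm12794 alone excludes 1. It rests on 4 UMIs in 3 of the 9 control cells and 144 UMIs in 20 of the 51 treated cells. UMIs of 1 cell are not independent, so it gives no verdict on cells or cultures.

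The genes were found together in few cells. Among the 69 positive treated cells 44 had 1 of the 9 genes, 8 had 2, 6 had 3, and 11 had 4 or more, up to 8 in 1 cell. All but 1 of the 25 cells with at least 2 genes had Zscan4, and 15 of the 44 cells with 1 gene did. In the control library 8 cells had 1 gene and 4 cells had 3 to 5, and the latter all had Zscan4. Duxf3 and Gm12794 shared 14 cells, 46.7% of the Duxf3 cells and 56% of the Gm12794 cells, where 0.532% of all treated cells had Gm12794. Usp17la shared 14 cells with Duxf3 and 18 with Gm12794. All 7 Gm4340 cells had Gm12794, and 6 of them had Duxf3.

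The cells with the most UMIs did not carry the genes in the same proportions. The leading treated cell, with 54 UMIs of the 9 genes among 9532 in all, had 21 of Zfp352, 25 of Gm4340, 104 of Sp110 and 1 of Tdpoz4. It had 6 of Gm12794 and 0 of Duxf3 and Usp17la. Another treated cell, with 42 UMIs of the 9 genes, had the reverse order, with 26 of Gm12794, 5 of Duxf3, 3 of Gm4340, 0 of Zfp352 and 1 of Sp110, although its 178 Zscan4 UMIs were the most of any cell and exceeded the 144 of the leading cell. The windows printed above for Zfp352, Gm4340 and Sp110 share the marked letters, for Sp110 only in its farther upstream window. These genes led in 1 and the same cell. This is 1 cell, singled out after its values were seen. Total UMIs of the 10 cells with the highest sums lay between 5753 and 22648, beside the library median of 14213, and no doublet caller was run.

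**Figure D4:**
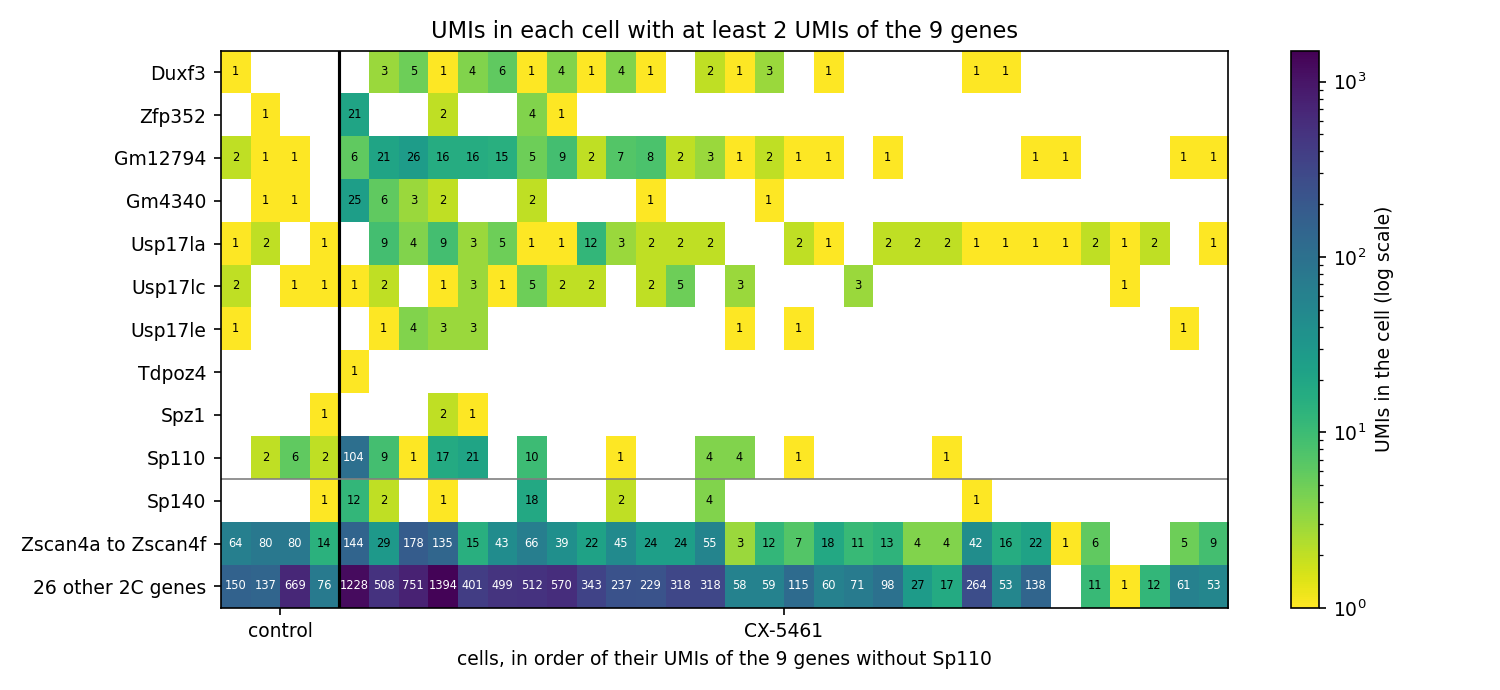
UMIs of each gene (rows) in each cell (columns) with at least 2 UMIs of the 9 genes without Sp110, for 4 control and 30 CX-5461-treated cells ordered by that sum. Colour gives UMIs on a log scale, blank means 0, and the lower rows give Sp140, the summed Zscan4 copies and the summed 26 other 2C genes. The leading treated cell has 104 UMIs of Sp110 and 0 of Duxf3.

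Duxf3 was also found in 10 treated cells without Zscan4, always as 1 UMI. Of these, 2 had a UMI of 26 other 2C genes, such as Tcstv3 and Tmem92, 20% (2.52 to 55.6), which does not differ beyond counting error from the 14.6% (13.5 to 15.7) of cells with neither Duxf3 nor Zscan4. By contrast, all 20 cells with both Duxf3 and Zscan4 had them, at 22904 CPM summed. With or without Duxf3, 96.1% of the 51 treated cells with at least 5 Zscan4 UMIs had them. The 20 treated cells with another of the 9 genes and neither Duxf3 nor Zscan4 had these 2C genes in 12 cases, 60% (36.1 to 80.9). Median depths of the 3 groups without Zscan4 were 15221.5, 14083 and 13070 UMIs. Free RNA in droplets as a source of single Duxf3 UMIs was not tested.

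Cells with the 9 genes were otherwise ES cells by their markers. Pou5f1 was found in 11 of the 12 control cells and in all 69 treated cells, at 589 CPM in the latter, and none passed the feeder rule. The ES cell markers summed to 6546 CPM in the 69 treated cells, beside 229 CPM in treated feeder cells. In the 39 of them with Zscan4 Pou5f1 stood at 516 CPM and in the 30 without at 678 CPM, beside 744 CPM in cells with neither these genes nor Zscan4. The median mitochondrial share of the 69 cells was 4.13%, the same to 3 digits as in the cells with neither. It was 4.40% in those with Zscan4 and 3.67% in those without.

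Sp110 was followed by class of cell because of its UMIs in feeder cells. It was found in 12 of 141 control feeder cells, 8.51% (4.48 to 14.4), and in 13 of 146 treated ones, 8.90% (4.83 to 14.7), at 5.82 CPM (3.50 to 9.09) and 4.05 CPM (2.26 to 6.67). No difference between the libraries was seen there, with a ratio of 0.695 (0.329 to 1.44). In cells that were neither feeder cells nor had Zscan4 it was lower, with 21 UMIs in 14 of 3589 control cells and 93 UMIs in 88 of 4372 treated cells. The levels were 0.46 CPM (0.285 to 0.703) and 1.49 CPM (1.20 to 1.82), a ratio of 3.24 (2.00 to 5.47). In this class 83 of the 88 treated cells had a single UMI. In cells with at least 5 Zscan4 UMIs Sp110 reached 103 CPM (51.6 to 185) and 252 CPM (216 to 292), with 178 of the 293 treated UMIs in 12 of 51 cells. A single cell held 104 of these 178. Without the leading cell of each library the levels were 56.2 CPM (18.2 to 131) and 106 CPM (83.4 to 133), and these intervals overlap.

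Other 2C genes were counted in the cells with Sp110 and no Zscan4. Of the 88 treated cells 18 had a UMI of the 26 other 2C genes, 20.5% (12.6 to 30.4), beside 14.6% of the class, at similar median depths of 14281.5 and 14089.5 UMIs. Sp140, the neighbour on the opposite strand, had a like pattern by class, with 9 UMIs in control and 87 in treated cells without Zscan4, a ratio of 7.06 (3.55 to 16.0), and 42 UMIs in 9 treated cells with at least 5 Zscan4 UMIs. Sp140 was found in 1 of the 88 Sp110 cells without Zscan4, 1.14%, beside 1.90% of all treated cells of that class. With at least 5 Zscan4 UMIs it was found in 7 of the 12 Sp110 cells, beside 17.6% of the class. Sp100, the third gene in this row on chromosome 1, showed little of it, with a ratio of 1.26 (1.04 to 1.52) in cells without Zscan4, less than the TMM factor of 1.30. Of 11 interferon-response genes, named because Sp110 is inducible by interferon, 1 had a ratio of at least 2 in cells without Zscan4 and 8 were at or under 0.5, with a median log2 ratio of -1.46. The highest was Stat2 at 2.16 (1.80 to 2.60), or 1.66 after division by the TMM factor, and the lowest Ifi44 at 0.0498 (0.0099 to 0.155). Over all kept cells, feeder cells included, none of the 11 had a ratio of at least 2 and 3 were at or under 0.5, with a median of -0.49 beside 0.40 for all genes. Of all genes 25.0% had a ratio of at least 2 there and 5.64% were at or under 0.5. These shares were not computed for cells without Zscan4 alone, so the counts in that class have none beside them.

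**Figure D5:**
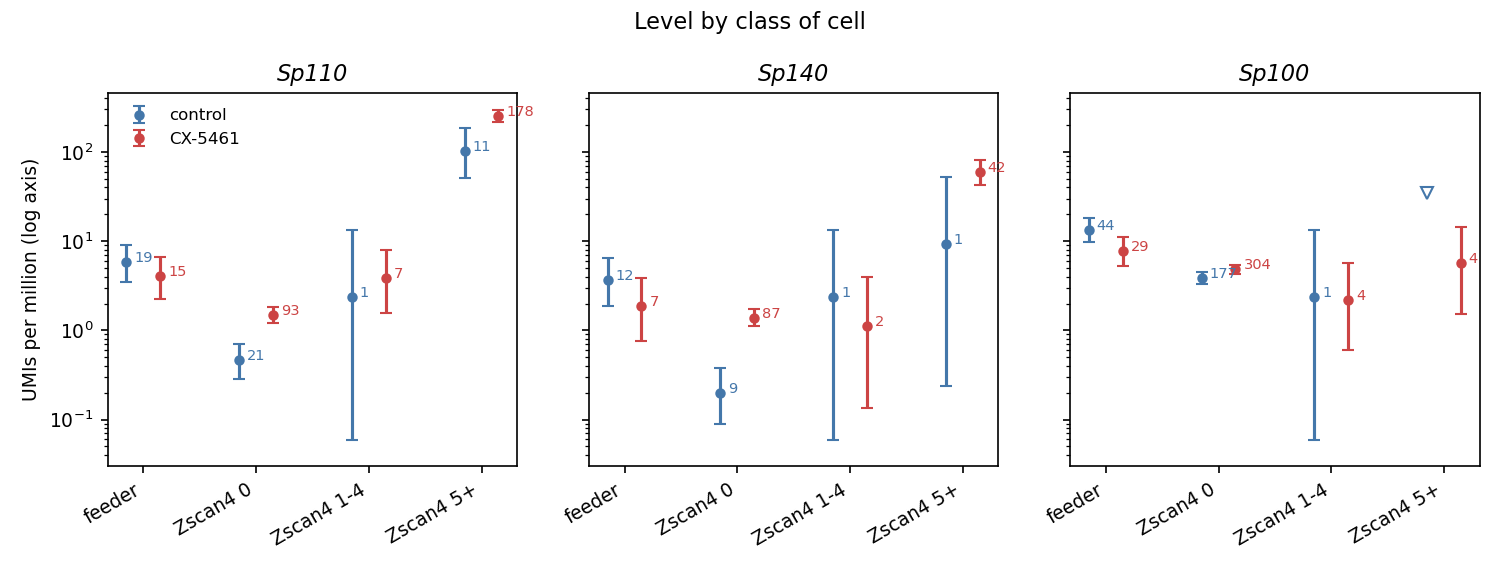
Levels of Sp110, Sp140 and Sp100 in CPM on a log axis, with exact 95% counting intervals and the number of UMIs, in feeder cells and in other cells by their Zscan4 UMIs, for the control (blue) and CX-5461 (red) library. The open triangle is the upper bound for a class with 0 UMIs. Sp110 was similar between libraries in feeder cells, at 5.82 and 4.05 CPM, and apart in cells without Zscan4, at 0.46 and 1.49 CPM.

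The genes detected most like the 9 were looked for across the CX-5461 library. By the phi coefficient, which is 1 where 2 genes are found in exactly the same cells and 0 where they are unrelated, the leading gene that was not among them was Gm7971 (chromosome 5, 95590599 to 95594875), found in 26 cells of which 20 were among the 69, with phi at 0.468 over 4697 cells. Gm21319 (0.459), Zscan4a (0.443), Gm48388 (0.437), Gm12800 (0.435) and Zscan4e (0.434) followed, and then Gm6468, Gm5788, Gm2022 and Gm4971 at 0.432 to 0.415. For Duxf3 alone the order was Gm12800 (0.529), Gm6494 (0.519), Gm7971 (0.498), Gm13057 and Gm16429 (both 0.494). Gm12800 lies on chromosome 4 at 101909121 to 101911908, next to Gm12794, and 12 of its 17 cells had Duxf3. Gm6494 (chromosome 10, 58757270 to 58759567) is annotated as a processed pseudogene. All points share 1 library and its depths, so these are descriptions.

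Genes known to act on Dux were compared as a list of 15. None had a ratio of at least 2, where 25.0% of all genes did, and none of at most 0.5, where 5.64% did. Relative to library totals, without division by the TMM factor of 1.30, 11 were above 1. The log2 ratios of the 15 had a median of 0.25 beside 0.40 for all genes. The highest were Dppa4, with Dppa2 an activator of Dux, at 1.70 (1.61 to 1.78), and Chaf1a, of the chromatin assembly factor CAF-1, at 1.46 (1.36 to 1.57). The lowest were Ncl, encoding nucleolin, at 0.677 (0.67 to 0.684), and Pcgf6, of a Polycomb complex, at 0.691 (0.619 to 0.772). Dppa2 was at 1.02 (0.976 to 1.06). Of the 26 other 2C genes 23 reached 20 UMIs and all 23 had a ratio of at least 2, or 21 after division by the TMM factor, beside 25.0% and 17.3% of all genes. Of the 23, 13 had fewer than 20 UMIs in the control library and needed the treated one to reach the minimum, so this count is a description. The median log2 ratio was 2.32. The highest were Tcstv3 at 27.4 (12.4 to 75.3) and AF067061 at 21.2 (10.6 to 49.8), and the lowest Gm7982 at 2.43 (1.37 to 4.55) and Gm16381 at 2.45 (0.867 to 8.48). This list holds genes named as 2C markers in the field, some with earlier values from these libraries known.

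The letters cacacctttaatc were last followed to the other genes that hold them near a start. Of the 49 symbols with such a window 32 had a row in the tables, 3 of them Zfp352, Gm4340 and Sp110. Of the other 29, 10 reached 20 UMIs and 8 of these had a ratio of at least 2, beside 25.0% of all genes. Without the Gm4340 row of genes it was 4 of 6, with Ocm at 1 and 136 UMIs, Gm12790 at 7 and 37, Pemt at 297 and 991 and Gm16381 at 5 and 17. After division by the TMM factor the counts were 6 of 10 and 2 of 6, beside 17.3% of all genes, and Pemt and Gm16381 were no longer among them. Sgk1 had a ratio of 0.416 (0.397 to 0.434), and Zbed3 was at 0.738 (0.631 to 0.862). Only Gm16381 of these had Zscan4 in at least 50% of its treated cells, in 12 of 17, and Ocm had it in 5 of 120. Of the 8 with a ratio of at least 2, all but Pemt had fewer than 20 control UMIs and reached the minimum only through the treated library. The letters were also picked after the windows had been read, so these counts are a description and no support.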

How the data were processed

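Libraries were made with 10x Genomics Single Cell 3′ V2 reagents. The authors built 1 gene by barcode table per condition with a published droplet pipeline and deposited raw UMI counts per gene (mm10 per the labels) with no filter, and the counter's strand setting is not given in the sources used here. Deposited counts marked as shared between genes were read as a second column. The labels' processing notes name Seurat 2.3.4, which was not used here. Barcodes carry running numbers, so samples and barcodes common to both libraries could not be traced. No column belonged to another sample.

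Barcodes were kept from 500 UMIs upward and up to a mitochondrial fraction of 0.2, as in the study, leaving 3767 of 3838 and 4697 of 4922 barcodes and 49483868 and 68745851 UMIs. No doublet caller was run. Levels are summed UMIs as CPM (counts per 1000000) with exact Poisson intervals, ratios carry exact conditional binomial intervals, and shares carry Clopper-Pearson intervals. A count of 0 was read as at most 3 counts. With 1 library per condition no p-value was computed. Gene names came from GENCODE vM21, and 67 gene IDs had no match. Python 3.11.15, numpy 2.4.6, scipy 1.17.1, pandas 2.3.3 and matplotlib 3.10.9 were used, and the scripts were tested on simulated data.

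The genes and lists were chosen with earlier results of these data known. Genes named are the 10 genes, Zscan4a to Zscan4f, the 10 genes with the highest phi for any of the 9 genes without Sp110 and the 5 for Duxf3 (at least 10 positive treated cells), and up to 4 genes at the ends of each list. Genes holding the shared letters, the neighbours of Gm4340, Sp140 and Sp100, and single cells were named after their values were seen. The other 2C genes were Tcstv1, Tcstv3, BB287469, Gm5662, Gm2022, Gm8300, Gm2016, Gm20767, Gm2056, Gm16381, Gm4027, Pramef25, Pramel6, Pramel7, AF067061, B020004J07Rik, D5Ertd577e, BC080695, Tmem92, Ubtfl1, Arg2, Gm13119, Gm13057, Gm7982, Gm21761 and Gm8994. The genes acting on Dux were Dppa2, Dppa4, Nelfa, Trp53, Trim28, Ncl, Smchd1, Zmym2, Kdm1a, Chaf1a, Chaf1b, Setdb1, Pias4, Rif1 and Pcgf6. The interferon genes were Ifit1, Ifit3, Isg15, Irf7, Oasl2, Bst2, Ifi44, Rsad2, Usp18, Xaf1 and Stat2, and 1 further gene of that list is not reported here, so its counts cover 11 genes. Near copies, feeder, ES and macrophage markers were further lists. Alternatives covered the scaling, filters on cells and genes, feeder cells, leading cells, thinning and the UMI minimum. Sp110 without its leading cells, the interferon genes by class and the TMM count for genes with the shared letters were added after the data were seen.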

Additional observations from a re-analysis of the deposited data

How the results depend on the processing

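Of the 7 genes that reached 20 UMIs, all 7 kept a ratio of at least 2 with the TMM factor, with every barcode, without feeder cells and as a mean over cells. The 6 other than Zfp352 kept it with cells of at least 5000 UMIs and at most 0.1 mitochondrial, where Zfp352 had 0 control UMIs. These 6 also kept it without the leading cell of each gene. With a minimum of 200 UMIs per gene only 1, Sp110, could be called, because fewer genes were left. The share of cells with a UMI of the 9 genes without Sp110 was 0.727% in the CX-5461 library with cells thinned to 3100 UMIs, and with at least 2 UMIs it was 0.106% in control and 0.639% in CX-5461-treated cells, where fewer molecules or a stricter minimum leave fewer cells. Of the treated cells with these genes, 70.6% had Zscan4 after thinning and 40.6% when 5 Zscan4 UMIs were asked for. The log2 ratio of Sp110 was 2.58 without feeder cells and 1.56 without the leading cell of each library, beside 2.02. With each cell's CPM averaged over cells, the log2 ratio was 1.34 for Usp17la, beside 2.88, and -1.77 for Spz1, which rests on 1 control UMI in a cell of 1086 UMIs. The share of all genes with a ratio of at least 2 was 17.3% with the TMM factor and 33.5% with no filter on low counts. The ratios of Zfp352 and Spz1 could not be computed with the stricter filter on cells, nor those of Zfp352, Usp17le and Spz1 without leading cells, because the only control UMI was removed. Counting Zscan4 pseudogenes as well changed no share beyond its interval. No paired analysis was possible because the tables carry no sample of origin, and replicates could not be left out for the same reason. With 1 library per condition, differences between cultures and differences due to CX-5461 cannot be told apart.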

Other observations

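Genes close in sequence to those of the report were also counted. Of 12 near copies that were listed as genes, 4 reached 20 UMIs. A ratio of CX-5461 to control of at least 2 was found for 3 of them, beside 25.0% of all genes. These were Duxbl2, Duxbl3 and Sp140, at 5.33 (2.09 to 17.4), 6.07 (2.77 to 15.7) and 4.32 (2.76 to 7.04), while Sp100 was at 1.11 (0.931 to 1.32). Duxbl2 and Duxbl3, with 5 and 7 control UMIs, reached the minimum only through the treated library, so this count is a description. Duxbl2 and Duxbl3 each had a UMI in 36 treated cells, and 19 of these had Zscan4 in either case. Usp17ld had 1 control UMI and 12 treated UMIs in 10 cells, and all 10 had Zscan4. Tdpoz3 had 6 treated UMIs in 4 cells, more than the 1 UMI of Tdpoz4, and 0 in the control library. The 3 Zscan4 pseudogenes had ratios of 8.36 (5.16 to 14.4) for Zscan4-ps1, 3.34 (2.79 to 4.01) for Zscan4-ps2 and 3.90 (3.43 to 4.46) for Zscan4-ps3.

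None of 7 ES cell markers had a ratio of at least 2 or at most 0.5, where 25.0% and 5.64% of all genes did. The ratios of these markers ran from 0.558 for Zfp42 to 1.64 for Sox2. Of 10 feeder markers 2 had a ratio of at least 2, Col3a1 at 2.38 and Postn at 3.19, beside 25.0% of all genes. Only Postn stays above 2 after division by the TMM factor. Another 2 were at or under 0.5, Tagln at 0.149 and Acta2 at 0.265, beside 5.64% of all genes. The numbers of feeder cells were 141 and 146.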
